A study of Mus musculus with 8 samples.

Results

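The 9 genes described here write, maintain or erase methylation of cytosine in DNA: the methyltransferase genes Dnmt1, Dnmt3a and Dnmt3b, their partner genes Dnmt3l and Uhrf1, the oxidase genes Tet1, Tet2 and Tet3, and the glycosylase gene Tdg. They were taken by symbol from the 55335 genes of the deposited counts, each matched 1 row, and all 9 were among the 16504 genes with enough reads to test. The cells were E14 mouse embryonic stem cells (ESCs), a line that had been infected in every group with a lentivirus carrying a short hairpin RNA (shRNA) and kept in medium with serum, the cytokine LIF and the kinase inhibitors CHIR99021 and PD0325901. The 4 groups held 2 biological replicates each: control cells with a scrambled hairpin, which the labels call negative control, and cells with hairpins against Sox2 (Sox2-KD), hnRNPK (hnRNPK-KD) or Cdk9 (Cdk9-KD), where KD stands for knockdown. The sources do not say which of the hairpins designed against a gene each library received, so that a hairpin and its target cannot be told apart within a group. Poly(A) RNA was sequenced, and counts per gene summed to between 16709201 and 17719366 in each library.

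Methylation of CpG dinucleotides is copied after each round of replication by DNMT1, which the protein UHRF1 brings to hemimethylated DNA. DNMT3A and DNMT3B add methyl groups to unmethylated sites, and DNMT3L, which has no catalytic activity of its own, binds and stimulates them. TET1, TET2 and TET3 oxidize 5-methylcytosine, and TDG cuts out the further oxidized bases so that base excision repair can restore cytosine. ESCs kept with CHIR99021 and PD0325901 are known for low DNA methylation, and Tet1 and Tet2 are the TET genes that mouse ESCs mainly use. The counts measure mRNA, not protein, enzyme activity or methylation.

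Before the members were read, each group was checked for its targeted gene. Sox2 mRNA stood at 412 and 530 CPM (reads of the gene scaled to library size) in the control libraries against 320 and 284 CPM in Sox2-KD, 64.1% of control (log2 fold change, log2FC, -0.64, adjusted p = 0.0479 in edgeR's quasi-likelihood test). Cdk9 mRNA stood at 109 and 129 CPM in control and at 73.1 and 53.2 CPM in Cdk9-KD, 53.1% of control, and did not pass the threshold (adjusted p = 0.0985). Hnrnpk mRNA was 1094 and 1131 CPM in control and 697 and 1144 CPM in the hnRNPK-KD-labelled libraries. The second of these was not below control, so that the group is called by its label throughout. The ESC markers were abundant in all groups (summed over 8 genes, 6357 to 8338 CPM per library). The 7 primitive endoderm markers summed to 3.83 and 5.10 CPM in control and to 43.1 and 62.5 CPM in Sox2-KD, and the 7 trophectoderm markers to 85.4 and 98.8 CPM in control and to 179.0 and 311 CPM in Sox2-KD. In Sox2-KD, 2 of 5 tested primitive endoderm markers and 4 of 6 tested trophectoderm markers were called higher, against 2.63% of all tested genes. The other lists had 0 of 8 ESC markers, 0 of 4 epiblast markers and 1 of 5 fibroblast markers called higher. Of the 7 endoderm markers, 1 was at 0 in each control library. The called endoderm markers were Dab2 (log2FC 5.85) and Gata6 (log2FC 3.65), and Dab2, with 12 and 15 reads in control and 637 and 950 reads in Sox2-KD, held most of both Sox2-KD sums (54.2 of the 62.5 CPM in replicate 2). Of the 5 tested endoderm markers, 4 had a log2FC above 0 and 1, Gata4, below. Sox17 had 2 and 4 reads in control and 17 and 10 reads in Sox2-KD. Pdgfra had 31 and 47 reads in control and 50 and 54 reads in Sox2-KD, and neither gene was called. Gata4, a defining factor of that lineage, had 17 reads in each control library and 21 and 8 reads in Sox2-KD, which overlapped. The called trophectoderm markers were Gata3 (log2FC 3.48) and the keratin genes Krt7 (3.81), Krt8 (2.96) and Krt18 (4.34). Krt8 held 97.2 and 181.9 CPM and Krt18 held 41.4 and 82.8 CPM of the Sox2-KD sums. The other tested trophectoderm markers lay below both control libraries without passing the test: Cdx2, a defining factor of that lineage, stood at 19.8 and 35.1 CPM in control and at 6.10 and 6.22 CPM in Sox2-KD (adjusted p = 0.0521), and Tfap2c at 43.4 and 43.0 CPM in control and at 28.7 and 32.5 CPM in Sox2-KD (adjusted p = 0.398). The called fibroblast marker was Lum, with 0 and 1 reads in control and 23 and 13 in Sox2-KD, while Col1a2 had a log2FC of -3.44 (adjusted p = 0.0565). With the smallest p in lists where 0 were called, Nanog of the ESC markers had a log2FC of -0.43 (adjusted p = 0.161) and Pim2 of the epiblast markers 0.67 (adjusted p = 0.0762). The part of other cell types in the results for Sox2-KD was not tested. In RNA from a whole culture, fewer cells of a type and less RNA per cell cannot be told apart.

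The sequences upstream of the members that moved in Sox2-KD are shown because they differ in the CpG dinucleotides that these enzymes act on. They are the 250 bases before the start site in RefSeq (GRCm38.p6), 5′ to 3′ on the strand of the gene, with every CpG in capitals. Only windows that overlap no annotated exon are printed.
Tet2 (chr3:133544391-133544640, − strand): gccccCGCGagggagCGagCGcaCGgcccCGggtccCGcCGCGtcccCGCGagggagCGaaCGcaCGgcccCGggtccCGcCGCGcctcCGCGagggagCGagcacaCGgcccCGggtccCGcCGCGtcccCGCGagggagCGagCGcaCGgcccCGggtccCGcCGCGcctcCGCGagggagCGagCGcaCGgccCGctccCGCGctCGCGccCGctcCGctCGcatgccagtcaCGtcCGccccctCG
Dnmt3l, start 2 (chr10:78049592-78049841, + strand): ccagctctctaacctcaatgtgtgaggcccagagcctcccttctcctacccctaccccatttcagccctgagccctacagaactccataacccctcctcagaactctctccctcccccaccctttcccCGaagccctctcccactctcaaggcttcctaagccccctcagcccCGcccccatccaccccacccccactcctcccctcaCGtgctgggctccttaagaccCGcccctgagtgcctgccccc
Dnmt3l, start 3 (chr10:78055085-78055334, + strand): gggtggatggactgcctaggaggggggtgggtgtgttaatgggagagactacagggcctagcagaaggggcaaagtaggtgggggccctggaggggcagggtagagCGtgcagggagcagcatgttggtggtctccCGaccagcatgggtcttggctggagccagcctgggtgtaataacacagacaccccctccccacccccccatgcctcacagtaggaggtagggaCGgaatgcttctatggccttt
Uhrf1, start 2 (chr17:56304063-56304312, + strand): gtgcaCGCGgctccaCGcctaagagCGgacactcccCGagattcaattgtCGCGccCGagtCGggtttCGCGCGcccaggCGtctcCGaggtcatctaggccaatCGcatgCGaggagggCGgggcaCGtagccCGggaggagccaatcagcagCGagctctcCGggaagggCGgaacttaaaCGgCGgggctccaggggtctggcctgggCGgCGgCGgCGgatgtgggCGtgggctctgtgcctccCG
The Tet2 window held 51 CpG and was 83.6% G or C, and 99.9% of the 32851 promoter windows of all genes held fewer. The Dnmt3l windows held 4 and 3 CpG, below the median of 6 over all windows, and the first Dnmt3l start had 5. The Uhrf1 window shown held 30 CpG and that of its first start 10. The 16 start sites of the 9 members ranged from 2 to 51 CpG. Of the members not called in Sox2-KD, Dnmt3a had windows with 38, 40 and 15 CpG, and Dnmt1 with 26, 7 and 2. The windows of Dnmt3b, Tdg, Tet3 and Tet1 held 21, 19, 17 and 15 CpG. The part of CpG content in the changes of the members was not tested. The letters CATTGT, a core that SOX factors recognize, were searched on both strands and were in 0 of the 16 windows, against 10.7% of all windows. CCAAT was in 6 of the 16 windows, against 33.8% of all, and GGGCGG in 11 of the 16, against 32.7% of all. The windows are not 16 separate promoters, since several belong to the same gene and those of Dnmt3a starts 1 and 2 overlap. They ranged from 50.4% to 83.6% G or C, against a median of 52.4% over all windows. The part of base composition in these motif counts was not tested. Presence or absence of a motif in these windows says nothing of binding elsewhere.

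In the control cells the members spanned a wide range of levels. Per kilobase of merged exons (GENCODE vM21), Uhrf1 had the highest level, 168 ± 24.97 CPM per kb (SD, n = 2), and Dnmt1 followed at 61.6 ± 2.71 CPM per kb. Dnmt3b (32.9 ± 3.80 CPM per kb), Tet1 (28.3 ± 2.12 CPM per kb) and Dnmt3l (27.7 ± 1.79 CPM per kb) came next. The control ranges of Tet1 and Dnmt3l overlapped, from 26.8 to 29.8 and from 26.4 to 28.9 CPM per kb, while those of the other neighbours in this order did not. Tet2 stood at 16.4 ± 0.0880, Tdg at 6.48 ± 0.729, Dnmt3a at 2.85 ± 0.295 and Tet3 at 1.32 ± 0.0640 CPM per kb. Merged exons count every annotated exon of a gene, so that levels of genes with many long or rarely used exons, such as the 16642 bases of Dnmt3a, are lower bounds for the isoform in use, and isoforms of a gene are not separated in the counts.

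**Figure D1:**
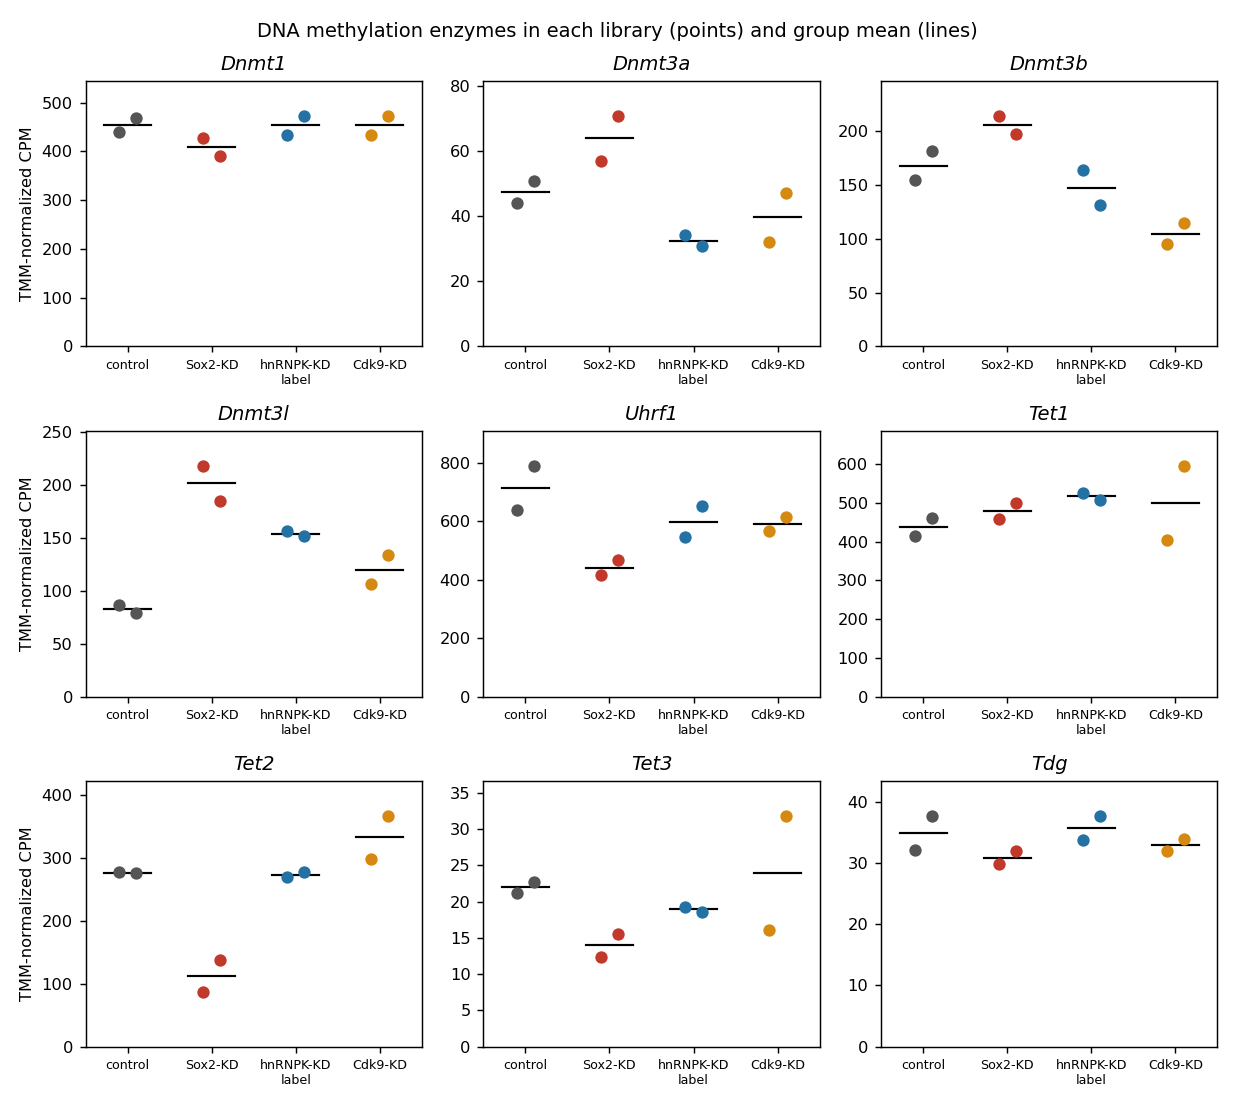
Each panel plots 1 gene, with TMM-normalized CPM on the y axis from 0 and the 4 groups on the x axis; points are the 2 libraries of a group and lines their mean. Both Sox2-KD libraries lie below every other library for Tet2 and Uhrf1 and above every other library for Dnmt3l.

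In Sox2-KD E14 ESCs, Tet2 fell to 40.7% of control, Uhrf1 fell to 61.7% of control and Dnmt3l rose 2.43-fold. A gene was called when its adjusted p in edgeR's quasi-likelihood test was under 0.05 and its absolute log2FC over 0.6. These 3 calls among 9 members stand beside 4.32% of all tested genes called in Sox2-KD against control, 2.63% higher and 1.69% lower. The members were chosen with earlier results of these data known, so that the share is given for scale only. The median log2FC of the 9 members was -0.15, against 0.02 over all tested genes. The other 6 members did not pass the test. The libraries of the 2 groups did not overlap for 8 of the 9 members, against 53.3% of all tested genes, and overlapped for Tet1. At an unadjusted p under 0.05 there were 4 members, the fourth being Tet3, among 3182 of the 16504 tested genes.

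Maintenance of methylation depends on DNMT1 and UHRF1, and of their genes Uhrf1 was called in Sox2-KD while Dnmt1 was not. Uhrf1 stood at 640.0 and 790.4 CPM in control, at 417 and 466 CPM in Sox2-KD, at 546 and 652 CPM in the hnRNPK-KD-labelled libraries and at 567 and 614 CPM in Cdk9-KD. The 2 Sox2-KD libraries were the lowest of the 8, and Cdk9-KD lay below both control libraries, while the hnRNPK-KD-labelled libraries overlapped control. The log2FC of Uhrf1 in Sox2-KD was -0.70 (SE 0.16, adjusted p = 0.0367, edgeR quasi-likelihood test with Benjamini-Hochberg adjustment). This call was lost without any 1 of the 4 libraries compared: the log2FC was -0.86 without control replicate 1 (adjusted p = 0.0647), -0.54 without control replicate 2 (0.238), -0.63 without Sox2-KD replicate 1 (0.163) and -0.78 without Sox2-KD replicate 2 (0.142). In the other groups Uhrf1 did not pass the test. Its log2FC was -0.26 (SE 0.16, adjusted p = 0.757) in the hnRNPK-KD-labelled libraries and -0.28 (SE 0.16, adjusted p = 0.582) in Cdk9-KD. Uhrf1 lies on chr17:56303321-56323486 (GRCm38, + strand), and the near-identical pseudogene Gm5648 held at most 0.381% as many reads.

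Dnmt1 did not pass the test in any comparison. Its 8 libraries ranged from 391.6 to 473 CPM. The control libraries stood at 440.0 and 468 CPM, and the 2 Sox2-KD libraries at 427 and 391.6 CPM, just below them. The log2FC was -0.15 in Sox2-KD (95% interval -0.45 to 0.15, adjusted p = 0.599), -0.001 in the hnRNPK-KD-labelled libraries (-0.30 to 0.30) and -0.002 in Cdk9-KD (-0.30 to 0.30). The ratio of Uhrf1 to Dnmt1 per kilobase was 2.52 and 2.92 in control, 1.69 and 2.06 in Sox2-KD, 2.18 and 2.39 in the hnRNPK-KD-labelled libraries and 2.26 and 2.25 in Cdk9-KD. All 6 libraries outside control had a ratio below both control libraries, which the 3 groups share as their reference. How often ratios of other genes separate in this way was not tested. Dnmt1 lies on chr9:20907209-20959888 (− strand).

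The members for methylation of new sites moved differently from each other. Dnmt3l, the cofactor gene, stood at 86.4 and 78.9 CPM in control, at 218 and 185 CPM in Sox2-KD, at 156 and 151 CPM in the hnRNPK-KD-labelled libraries and at 106 and 134 CPM in Cdk9-KD. Every library outside control was above both control libraries, and the 4 groups did not overlap each other. All 3 comparisons share the same 2 control libraries. Over all tested genes, libraries did not overlap control for 53.3% in Sox2-KD, 39.1% in the hnRNPK-KD-labelled libraries and 39.2% in Cdk9-KD. In Sox2-KD the log2FC was 1.28 (SE 0.16, 95% interval 0.93 to 1.64, adjusted p = 0.00322), and Dnmt3l stood 40th of the 16504 genes ordered by p. In the hnRNPK-KD-labelled libraries it was 0.89 (SE 0.16, adjusted p = 0.198), and Dnmt3l stood 14th by p in that comparison, in which no gene of the 16504 was called. In Cdk9-KD it was 0.54 (SE 0.16, adjusted p = 0.281). Per kilobase, Dnmt3l was the number 5 of the 9 members in control, number 2 in Sox2-KD (67.4 ± 7.88 CPM per kb, SD, n = 2) and number 3 in the other groups.

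Dnmt3l lies on chr10:78041947-78063622 (+ strand), and 67 of its exon bases are shared with Aire on the opposite strand. The strand setting of the counts is not given in the sources used here, so that reads over those bases cannot be told apart. Aire, chosen after its values were seen, held 127 and 32 reads in control, 64 and 422 in Sox2-KD, 67 and 101 in the hnRNPK-KD-labelled libraries and 133 and 132 in Cdk9-KD. Dnmt3l held 1535 and 1377 reads in control and 3966 and 3234 in Sox2-KD. The part of reads from Aire in the counts of Dnmt3l was not tested.

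Dnmt3a and Dnmt3b, the catalytic members of this group, did not pass the test against control in any group. Dnmt3a stood at 43.9 and 50.9 CPM in control, at 56.8 and 70.8 CPM in Sox2-KD, at 34.1 and 30.9 CPM in the hnRNPK-KD-labelled libraries and at 32.1 and 47.0 CPM in Cdk9-KD. Both Sox2-KD libraries lay above control and both libraries labelled hnRNPK-KD below it, with a log2FC of 0.43 (SE 0.20, adjusted p = 0.284) and -0.55 (SE 0.20, adjusted p = 0.544), and the Cdk9-KD libraries overlapped control (-0.26, SE 0.20, adjusted p = 0.708). Dnmt3b stood at 154 and 182 CPM in control, at 214 and 197 CPM in Sox2-KD, at 164 and 131 CPM in the hnRNPK-KD-labelled libraries and at 94.8 and 114 CPM in Cdk9-KD. The Sox2-KD libraries were the highest of the 8 and the Cdk9-KD libraries the lowest. Its log2FC was 0.29 in Sox2-KD (SE 0.17, adjusted p = 0.375), -0.19 in the hnRNPK-KD-labelled libraries (SE 0.17, adjusted p = 0.86) and -0.68 in Cdk9-KD (SE 0.17, adjusted p = 0.192). Dnmt3a lies on chr12:3806007-3914443 (+ strand) and Dnmt3b on chr2:153649450-153687730 (+ strand), and the close copy Dnmt3c held at most 4 reads in any library.

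Per kilobase, the ratio of Dnmt3l to the sum of Dnmt3a and Dnmt3b was 0.881 and 0.684 in control. It was 1.61 and 1.44 in Sox2-KD, 1.53 and 1.84 in the hnRNPK-KD-labelled libraries and 1.73 and 1.77 in Cdk9-KD. All 6 libraries outside control were above 1, and the 3 groups outside control had means of 1.52 to 1.75. These groups share the same control libraries, and how often ratios of other genes separate in this way was not tested. In Cdk9-KD, Dnmt3l was above and Dnmt3b below both control libraries, while in Sox2-KD all 3 genes were above control.

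**Figure D2:**
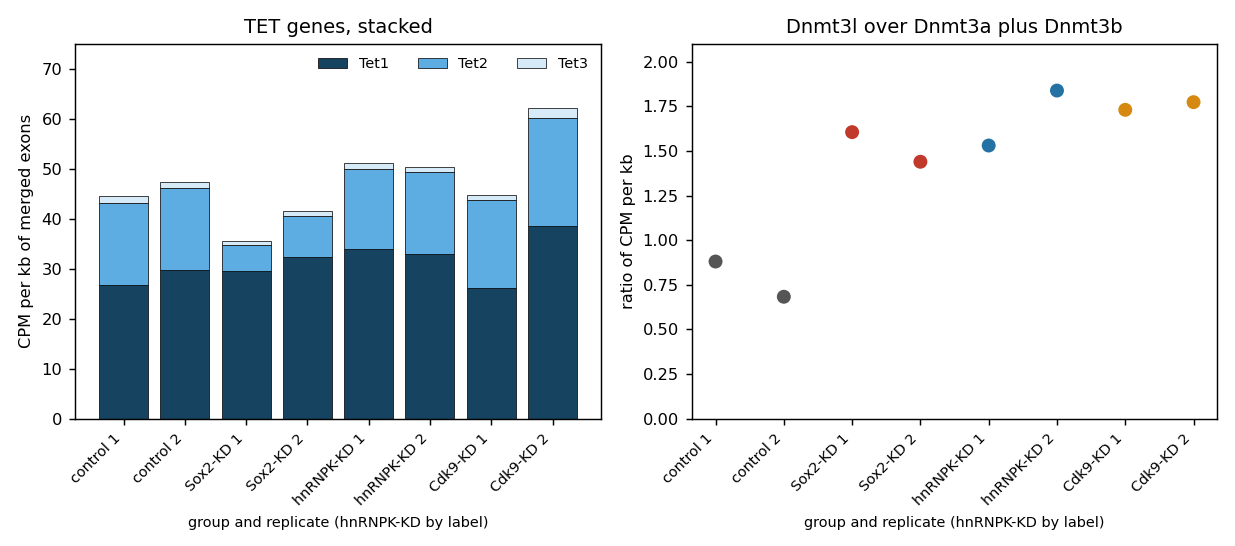
The left panel stacks the levels of Tet1, Tet2 and Tet3 (CPM per kb of merged exons, y axis from 0) for each of the 8 libraries, and the right panel plots the ratio of Dnmt3l to the sum of Dnmt3a and Dnmt3b per kb in the same libraries. The Tet2 segment is smallest in the 2 Sox2-KD libraries (14.6% and 19.6% of the sum), and both control libraries lie below 1 in the right panel.

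The TET genes also diverged. Tet2 stood at 277 and 275 CPM in control, at 87.5 and 137 CPM in Sox2-KD, at 269 and 277 CPM in the hnRNPK-KD-labelled libraries and at 298 and 366 CPM in Cdk9-KD. The 2 Sox2-KD libraries were far below the other 6, which ranged from 269 to 366 CPM. The log2FC in Sox2-KD was -1.30 (SE 0.20, 95% interval -1.74 to -0.85, adjusted p = 0.00846). It was -0.02 in the hnRNPK-KD-labelled libraries (95% interval -0.46 to 0.42, adjusted p = 0.993) and 0.27 in Cdk9-KD (-0.17 to 0.70, adjusted p = 0.693). The calls of Tet2 and Dnmt3l in Sox2-KD against control held in all 12 alternatives that were run, with adjusted p-values of up to 0.0456 and 0.0391. Tet2 lies on chr3:133463679-133545139 (− strand).

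Tet1, the most abundant TET gene in these cells, stood at 414 and 460.5 CPM in control and at 457 and 501 CPM in Sox2-KD, which overlapped. It stood at 526 and 508 CPM in the hnRNPK-KD-labelled libraries and at 403 and 596 CPM in Cdk9-KD, where the 2 libraries lay on either side of control. The log2FC of Tet1 was 0.13 (95% interval -0.27 to 0.53) in Sox2-KD, 0.24 (-0.16 to 0.64) in the hnRNPK-KD-labelled libraries and 0.19 (-0.21 to 0.59) in Cdk9-KD. Tet3, the least abundant member, stood at 21.2 and 22.7 CPM in control, at 12.4 and 15.6 CPM in Sox2-KD, at 19.2 and 18.6 CPM in the hnRNPK-KD-labelled libraries and at 16.1 and 31.8 CPM in Cdk9-KD. The Sox2-KD libraries were the lowest, and the 2 Cdk9-KD libraries were the lowest and the highest of the remaining 6. In Sox2-KD its log2FC was -0.65 (SE 0.29, adjusted p = 0.243), and the difference did not pass the threshold. Tet1 lies on chr10:62804570-62908996 and Tet3 on chr6:83362373-83459084, both on the − strand.

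Tet2 made up 36.9% and 34.4% of the summed TET level per kilobase in control, 14.6% and 19.6% in Sox2-KD, 31.2% and 32.5% in the hnRNPK-KD-labelled libraries and 39.5% and 34.9% in Cdk9-KD. The Sox2-KD share lay below every other library. Tet1 made up 83.3% and 78.1% of the sum in Sox2-KD and 60.2% and 62.8% in control, while its own level overlapped between these groups. The summed TET level was 44.5 and 47.5 CPM per kb in control and 35.5 and 41.5 CPM per kb in Sox2-KD, so that both Sox2-KD libraries were below control.

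Tdg, the glycosylase gene at the end of the TET pathway, stood at 32.0 and 37.6 CPM in control and at 29.8 and 31.9 CPM in Sox2-KD. Over all 8 libraries it ranged from 29.8 to 37.7 CPM. Its log2FC was -0.17 in Sox2-KD (95% interval -0.54 to 0.19), 0.03 in the hnRNPK-KD-labelled libraries and -0.08 in Cdk9-KD. Its counts are uncertain, because the copy Gm9855 is 99.2% identical over 1194 bases and held 416 to 528 reads per library, up to 85.9% as many as Tdg (543 to 656 reads), and the handling of reads that match both is not given in the sources used here. Gm9855, chosen after its values were seen, had a log2FC of -0.24 in Sox2-KD (SE 0.17, adjusted p = 0.489). Tdg lies on chr10:82629828-82650799 (+ strand).

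**Figure D3:**
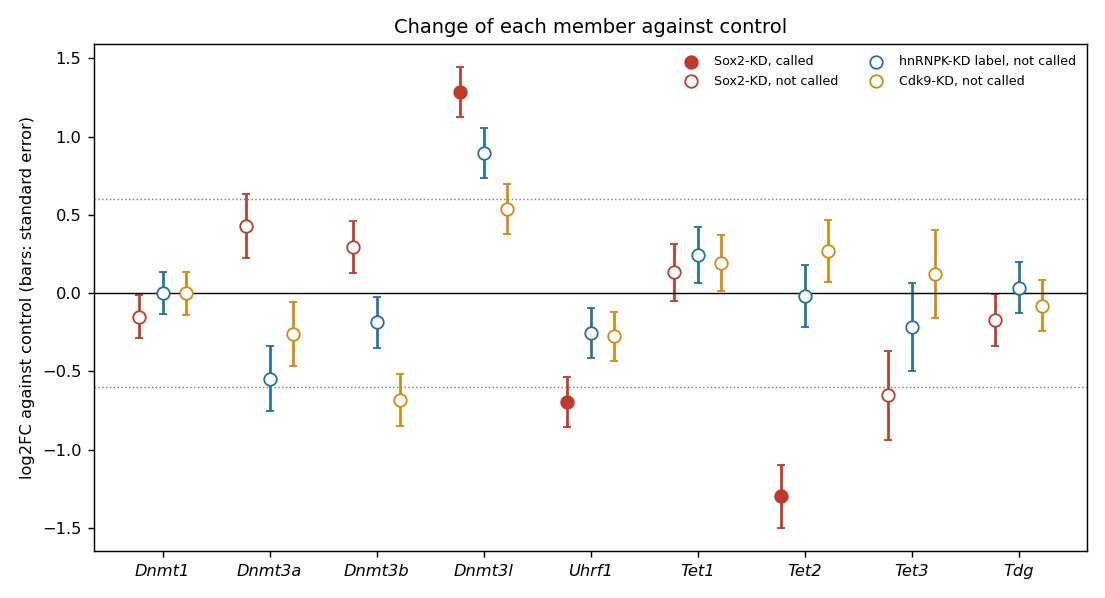
The log2FC against control (y axis) is plotted for each of the 9 members (x axis), with standard errors as bars, in Sox2-KD (red), the hnRNPK-KD-labelled libraries (blue) and Cdk9-KD (orange); filled points were called, and dotted lines mark a log2FC of 0.6 in either direction. The called points are Dnmt3l (1.28), Uhrf1 (-0.70) and Tet2 (-1.30) in Sox2-KD.

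In the hnRNPK-KD-labelled libraries, 0 of the 9 members were called against control, beside 0% of all tested genes in the edgeR quasi-likelihood test. At an unadjusted p under 0.05 there were 2 members, Dnmt3l and Dnmt3a, among 1325 genes in all, and the smallest adjusted p of any gene was 0.0761. DESeq2 and edgeR's likelihood ratio test each called 1 member, Dnmt3l, among 83 and 87 genes. The libraries did not overlap control for 4 of the 9 members, against 39.1% of all tested genes. In Cdk9-KD, 0 members were called against control, beside 0.139% of all tested genes (23 genes). Dnmt3b and Dnmt3l had an unadjusted p under 0.05, among 1720 genes in all. DESeq2 and the likelihood ratio test each called 1 member, Dnmt3b, among 222 and 279 genes. The Cdk9-KD libraries did not overlap control for 4 of the 9 members, against 39.2% of all tested genes.

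Sox2-KD was also compared directly with each of the other knockdown groups, which tests whether the members differ between knockdowns. Against the hnRNPK-KD-labelled libraries, 2 of the 9 members were called, beside 5.90% of all tested genes (3.95% higher and 1.95% lower). Tet2 was lower in Sox2-KD, with a log2FC of -1.28 (SE 0.20, adjusted p = 0.00791), and Dnmt3a was higher, with a log2FC of 0.97 (SE 0.21, adjusted p = 0.0244). Without replicate 2 of the hnRNPK-KD-labelled libraries, the one in which Hnrnpk mRNA was not lower, neither was called. The log2FC was then -1.25 for Tet2 and 0.92 for Dnmt3a. The call of Dnmt3a was lost as well without replicate 1 of that group (log2FC 1.04) and without Sox2-KD replicate 2 (0.80). Each of these fits leaves 1 library in a group. Fewer of all tested genes were called in this comparison whichever of its libraries was left out. Dnmt3l did not pass this comparison (0.39, 95% interval 0.04 to 0.74, adjusted p = 0.184).

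Against Cdk9-KD, 3 of the 9 members were called, beside 7.33% of all tested genes (4.77% higher and 2.56% lower). Dnmt3b was higher in Sox2-KD with a log2FC of 0.98 (SE 0.17, adjusted p = 0.00713), Dnmt3l was higher with 0.75 (SE 0.16, adjusted p = 0.0183), and Tet2 was lower with -1.56 (SE 0.20, adjusted p = 0.00231). Dnmt3b and Tet2 were called in all 12 alternatives. The call of Dnmt3l was lost without Sox2-KD replicate 1 (0.61, adjusted p = 0.113), without Sox2-KD replicate 2 (0.86, adjusted p = 0.0563) and without Cdk9-KD replicate 1 (0.61, adjusted p = 0.0716). Dnmt3a, at 0.69 (SE 0.20, adjusted p = 0.0683), was just outside the threshold, and it was called with DESeq2, the likelihood ratio test, library totals as the scaling, or without Cdk9-KD replicate 2. Tet3 was called lower in Sox2-KD in 1 alternative, without Cdk9-KD replicate 1 (-1.17, adjusted p = 0.0209). Uhrf1 did not pass either direct comparison (-0.44 and -0.42, adjusted p = 0.134 and 0.148).

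**Figure D4:**
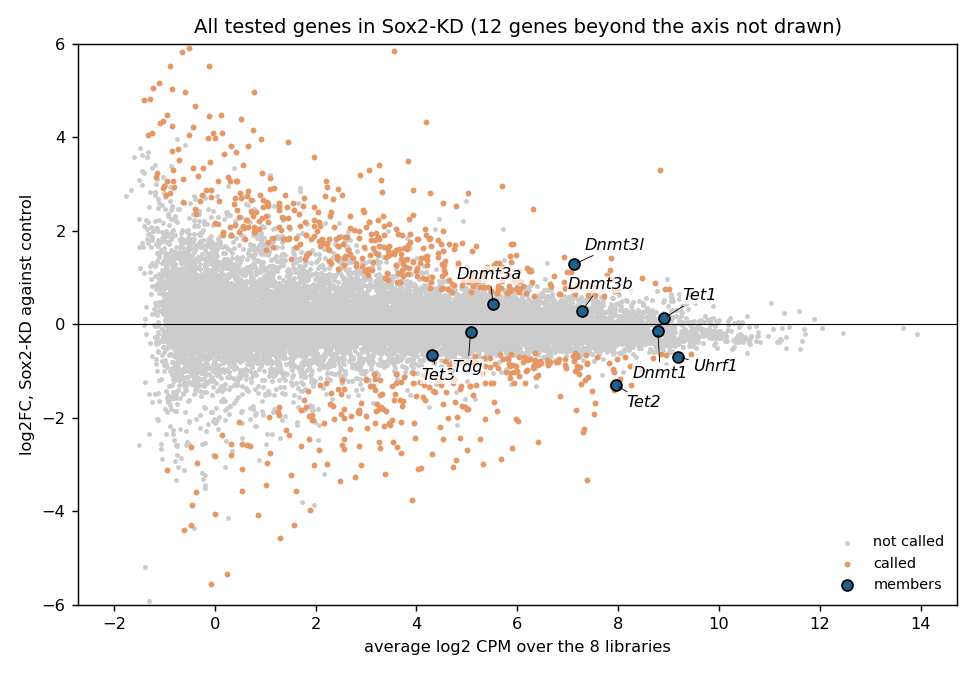
The log2FC of Sox2-KD against control (y axis) is plotted against the average log2 CPM over the 8 libraries (x axis) for the tested genes, with called genes in orange, the others in grey and the 9 members as labelled blue points; 12 genes lie beyond the y axis and are not drawn. Dnmt3l (1.28), Tet2 (-1.30) and Uhrf1 (-0.70) lie at high expression, where most genes stay close to 0.

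Genes that act beside the members were read from lists of their partners. Of 14 cofactors of maintenance and recruitment, 2 were called in Sox2-KD, beside 4.32% of all tested genes in that comparison. Cdca7, whose protein recruits the remodeler HELLS to chromatin, fell from 184 and 197 CPM to 115 and 97.8 CPM (log2FC -0.85, SE 0.18, adjusted p = 0.0251). Zfp57, a zinc finger gene needed for methylation at imprinted regions, rose from 496 and 431 CPM to 683 and 776 CPM (log2FC 0.66, SE 0.16, adjusted p = 0.0424). Zfp57 was above both control libraries in the other groups too, with a log2FC of 0.55 in the hnRNPK-KD-labelled libraries (adjusted p = 0.456) and 0.92 in Cdk9-KD (adjusted p = 0.0561). Libraries did not overlap control for 39.1% and 39.2% of all tested genes in those groups. The median log2FC of the 14 cofactors in Sox2-KD was 0.02, equal to that of all genes to that precision.

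Over all 16504 tested genes, 4.32% were called in Sox2-KD against control and 3182 had an unadjusted p under 0.05. Of 7 readers of methylated CpG that were tested, 0 were called in Sox2-KD in edgeR's quasi-likelihood test, and 2 had an unadjusted p under 0.05. These were Zbtb4, which stood at 4.34 and 5.33 CPM in control and 8.57 and 10.4 CPM in Sox2-KD (log2FC 0.97, adjusted p = 0.097), and Mbd4, a glycosylase gene (log2FC -0.43, adjusted p = 0.214). Mbd1, listed as a reader, was not analysed here. Of 13 tested partners of the TET enzymes and genes of base excision repair, 0 were called in Sox2-KD, and 1 had an unadjusted p under 0.05. It was Ung, a uracil glycosylase gene (log2FC -0.38, adjusted p = 0.239). The median log2FC of the readers was 0.11 and that of the repair list -0.05.

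Methyl groups for DNMTs come from S-adenosylmethionine, and 2 of 8 genes for its supply and recycling were called in Sox2-KD, both lower. Over all tested genes, 1.69% were called lower there. Ahcy, whose enzyme removes the product S-adenosylhomocysteine, fell from 188 and 225 CPM to 127 and 106 CPM (log2FC -0.83, SE 0.15, adjusted p = 0.0159). Shmt1, of one-carbon metabolism, fell from 172 and 200.2 CPM to 128 and 110 CPM (log2FC -0.65, SE 0.14, adjusted p = 0.034). Of 9 tested germline genes whose promoters are known to be methylated in somatic cells, 2 were called, both higher. Over all tested genes, 2.63% were called higher. Ddx4, a germline helicase gene, rose from 3.60 and 2.98 CPM to 14.3 and 11.9 CPM (log2FC 1.99, SE 0.35, adjusted p = 0.0132). Slc25a31, a carrier gene of the testis, rose from 11 and 6 reads to 47 and 57 reads (log2FC 2.58, SE 0.57, adjusted p = 0.0317). Hormad1, a meiosis gene whose promoter is a known target of methylation, stood at 27.7 and 33.3 CPM in control and at 11.5 and 11.7 CPM in Sox2-KD (log2FC -1.40, SE 0.59, adjusted p = 0.227). Dazl, a gene for a germ cell RNA-binding protein, stood at 19.5 and 26.2 CPM in control and at 12.5 and 13.9 CPM in Sox2-KD (log2FC -0.79, SE 0.54, adjusted p = 0.473). Both lay below control without overlap and did not pass the test, and they were chosen after their values were seen. The summed level of the 10 listed germline genes was 70.3 and 83.5 CPM in control and 63.4 and 85.8 CPM in Sox2-KD, and these sums overlapped. In them, Tex101 held 4.01 CPM in Sox2-KD replicate 1 and 27.6 CPM in replicate 2. Of the 9 tested germline genes, 7 had a log2FC above 0 and 2 below. Their median was 0.38, against 0.02 over all tested genes.

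**Figure D5:**
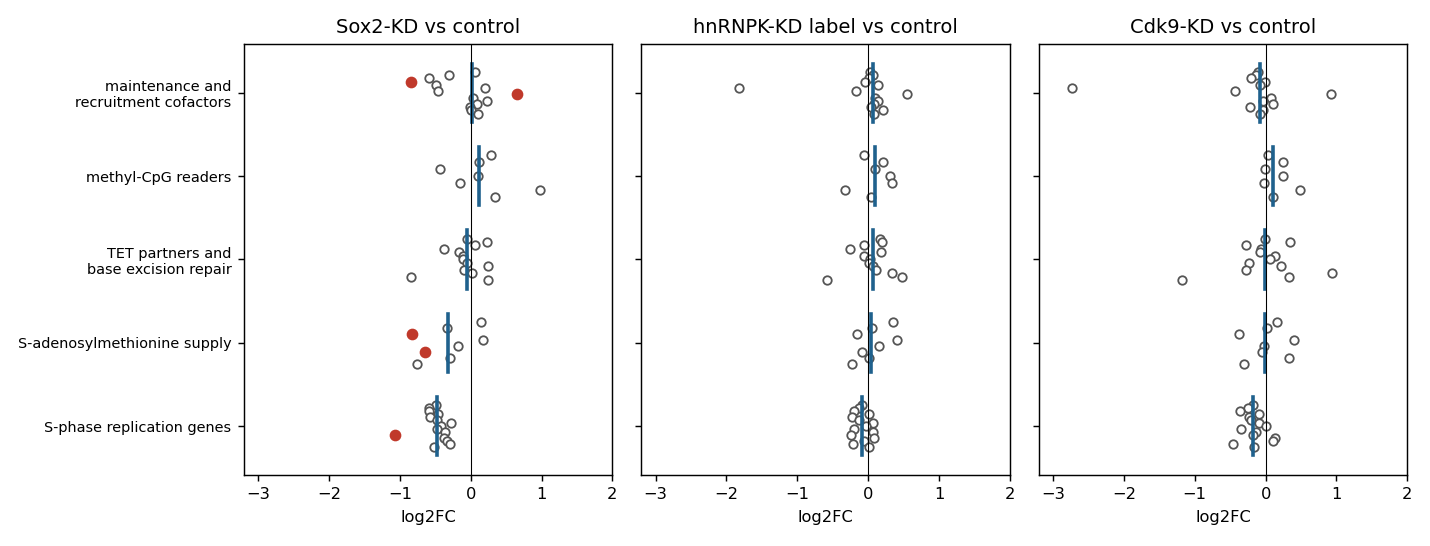
The log2FC against control (x axis) is plotted for each tested gene of 5 lists (rows) in Sox2-KD, the hnRNPK-KD-labelled libraries and Cdk9-KD (panels); filled red points were called, open points were not, and vertical bars mark the median of a list. In Sox2-KD all 15 replication genes lie below 0, around a median of -0.48.

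Uhrf1 and Dnmt1 are known to be transcribed mainly in cycling cells, so a list of S-phase genes was set beside them. Of 15 such genes, 1 was called in Sox2-KD, beside 1.69% of all tested genes called lower there. It was Pola1, a DNA polymerase subunit gene (log2FC -1.07, SE 0.18, adjusted p = 0.011). All 15 had a log2FC below 0, with a median of -0.48 against 0.02 over all tested genes. Mcm3 and Mcm4, subunits of the replicative helicase, had adjusted p-values of 0.0393 and 0.042 with log2FC of -0.59 and -0.59, short of the threshold on size. The summed level of the 15 genes was 4759 and 4943 CPM in control, 3595 and 3229 CPM in Sox2-KD, 4356 and 4657 CPM in the hnRNPK-KD-labelled libraries and 4113 and 4309 CPM in Cdk9-KD. Both Sox2-KD libraries had the lowest sums, as they had for Uhrf1, and the part of replication genes in the change of Uhrf1 was not tested.

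In the hnRNPK-KD-labelled libraries, 0 genes of these lists were called. Genes with the smallest p in lists other than the readers are given by value. Of the cofactors these were Zfp57, given above, and Dppa3. Gadd45b, a gene tied to active demethylation, stood at 23.3 and 20.9 CPM in control and at 14.8 and 14.7 CPM there (log2FC -0.58, SE 0.19, adjusted p = 0.506). Dppa3, whose protein keeps UHRF1 off chromatin, stood at 37 and 142 reads in control and at 34 and 15 reads there (log2FC -1.83, SE 0.75, adjusted p = 0.581). The control libraries differed widely from each other, and the lower of them was close to the higher library of this group. Mat2a, an S-adenosylmethionine synthetase gene, had a log2FC of 0.36 (adjusted p = 0.56), Mcm6 -0.23 (adjusted p = 0.783) and Hormad1 -1.56 (adjusted p = 0.546). Of the marker lists, Otx2 (epiblast) had a log2FC of 1.52 (adjusted p = 0.42), Tfap2c (trophectoderm) -0.79 (adjusted p = 0.539), Thy1 (fibroblast) -1.06 (adjusted p = 0.602), Dab2 (primitive endoderm) -0.46 (adjusted p = 0.892) and Nanog (ESC) -0.22 (adjusted p = 0.804).

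In Cdk9-KD the called gene of all the lists was Tfap2c, a transcription factor gene listed for trophectoderm, which fell from 43.4 and 43.0 CPM in control to 13.1 and 7.81 CPM (log2FC -2.04, SE 0.31, adjusted p = 0.0416). Among the partners of the TET enzymes and repair genes, Gadd45b had the smallest p, at 8.76 and 10.8 CPM (log2FC -1.17, SE 0.20, adjusted p = 0.0548). Hormad1 stood at 27.7 and 33.3 CPM in control and at 5.37 and 1.54 CPM in Cdk9-KD (log2FC -3.14, SE 0.65, adjusted p = 0.125). Its libraries did not overlap control, and it did not pass the threshold. Ahcy had a log2FC of -0.38 (adjusted p = 0.428), Zbtb4 0.48 (adjusted p = 0.621) and Ccne1, of the replication list, -0.46 (adjusted p = 0.349). Of the marker lists with no call, Otx2 had a log2FC of 1.82 (adjusted p = 0.155), Zfp42 (ESC) 0.41 (adjusted p = 0.406) and Col1a2 -1.23 (adjusted p = 0.595), and Gata4 had 43 and 30 reads (adjusted p = 0.445).

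For each member called in Sox2-KD, the 3 genes with the most similar pattern were sought among 9710 genes with an average log2 CPM over 3, by Pearson's r of log2 CPM over the 8 libraries. These libraries share their groups, so that the values describe likeness alone. Nearest to Tet2 were Txn1 (r = 0.99), Ddc (0.98) and Ly75 (0.97). Txn1 stood at 286 and 287 CPM in control and at 170 and 212 CPM in Sox2-KD, with the lower value in the same library as for Tet2. Nearest to Uhrf1 were Wee1 (r = 0.99), Cenpa (0.97) and Tspan13 (0.97), and nearest to Dnmt3l were Ube2dnl1 (0.98), Jmjd1c (0.97) and Rmdn2 (0.97). Wee1 encodes a kinase that restrains entry into mitosis, and Cenpa a centromeric histone H3 variant. Among the members themselves the highest r was 0.82, between Uhrf1 and Tdg, and the lowest was -0.85, between Dnmt3l and Uhrf1.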

How the data were processed

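Poly(A) RNA of 8 libraries was sequenced in read pairs. The authors trimmed reads with Trimmomatic, aligned them with STAR (2.7.9a in the submitters' processing notes) to GENCODE vM23 (GRCm38) and deposited raw counts per gene from featureCounts 2.0.1, not normalized and with replicates kept apart. All 8 columns matched a group and replicate by name. Symbols and coordinates were taken from GENCODE vM21, and 748 genes had no symbol. The filter on low counts was filterByExpr, with a minimum count of 10 and a minimum total of 15. All 8 libraries entered 1 quasi-likelihood fit in edgeR 4.0.16 (R 4.3.3) after TMM scaling, and p-values were adjusted over 16504 genes by Benjamini-Hochberg. Replicates differed beyond counting noise (chi-square per gene 16.4 to 28.9), and the common biological coefficient of variation was 0.186. P-values rest on 2 libraries a group. CPM per kb divides by merged exon length. Near-identical copies were sought with blastn 2.17.0. The fit was tested on simulated counts.

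All 9 members are named. From each other list, every called gene is named, or where none was called the 1 or 2 genes with the smallest p. The reader of methylated CpG that this rule names in the hnRNPK-KD-labelled libraries is not reported here. The members and lists were chosen with earlier results of these data known. Alternatives were DESeq2 1.42.0, other scalings, filters and tests, a replicate block, fits to the 4 libraries compared and leaving out each library. Plots were made in matplotlib 3.10.9 (Python 3.11.15).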

Additional observations from a re-analysis of the deposited data

Results flagged for a closer look

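Members whose change against control differed between Sox2-KD and another knockdown, by the direct edgeR quasi-likelihood test, were Tet2, Dnmt3a, Dnmt3b and Dnmt3l. For Tet2 the difference was -1.279 on the log2 scale against the hnRNPK-KD-labelled libraries and -1.563 against Cdk9-KD, and both Sox2-KD libraries were below all 4 libraries they were compared with. For Dnmt3a it was 0.974 against the hnRNPK-KD-labelled libraries, for Dnmt3b 0.978 against Cdk9-KD and for Dnmt3l 0.748 against Cdk9-KD. Each had both Sox2-KD libraries above both of the other group. Such separation does not set the flagged members apart. It held for 9 of the 9 members against the hnRNPK-KD-labelled libraries and for 8 against Cdk9-KD. The share over all tested genes was not computed for these 2 comparisons. Dnmt3a and Dnmt3b are members for which neither knockdown of the pair passed the test against control.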

How the results depend on the processing

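Over the members' log2FC, 508 of 540 values under an alternative kept their direction and side of the threshold, 11 calls were lost, 9 were gained and 12 values changed sign. The count of members called in Sox2-KD against control was 3 in every alternative on all libraries and 2 without any 1 library, where Uhrf1 was lost. With library totals, the log2FC of Tdg in the hnRNPK-KD-labelled libraries was -0.004 and that of Tet1 between Sox2-KD and Cdk9-KD 0.021. Library totals moved the median of all genes by 0.108 between Sox2-KD and the hnRNPK-KD-labelled libraries, with 903 genes called higher and 250 lower, against 652 and 322 with TMM.

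With DESeq2, 1 member was called in the hnRNPK-KD-labelled libraries (83 genes in all) and 1 in Cdk9-KD (222 genes). With the likelihood ratio test the members were 1 and 1, and all genes called were 1350 in Sox2-KD, 87 in the hnRNPK-KD-labelled libraries, 279 in Cdk9-KD, and 1690 and 1869 in the direct comparisons with those groups. Without a filter 1 gene was called in the hnRNPK-KD-labelled libraries. The cause of these moves was not tested.

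Leaving out each library left 1 library in a group, which was assumed to vary like the other groups. Members called then ranged from 0 to 2 between Sox2-KD and the hnRNPK-KD-labelled libraries. All genes called ranged from 144 to 343 in Sox2-KD, 0 to 1 in the hnRNPK-KD-labelled libraries, 0 to 32 in Cdk9-KD, 90 to 875 against the hnRNPK-KD-labelled libraries and 337 to 863 against Cdk9-KD. The log2FC of members near 0 changed sign, over ranges of -0.097 to 0.143 for Tdg and -0.089 to 0.050 for Dnmt1 in the hnRNPK-KD-labelled libraries, -0.084 to 0.025 for Dnmt1, -0.229 to 0.011 for Tdg, -0.116 to 0.414 for Tet1 and -0.447 to 0.501 for Tet3 in Cdk9-KD, and -0.295 to 0.239 for Tet1 between Sox2-KD and Cdk9-KD.

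Same-numbered libraries deviated from their group means with correlations of -0.223 to 0.210, so no common pairing by number was seen. With 2 libraries a group, these values cannot decide whether some samples were paired. With the replicate number as a block, 15 genes were called in Cdk9-KD against 23 without it, and no count of members called changed.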
